A study of Mus musculus with 6 samples.

Results

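The genes of cholesterol and fatty acid synthesis were read in transplanted mouse tumors as 28 genes chosen by symbol from the 21899 genes of the deposited expression table, and all 28 were found. They comprised 17 sterol enzymes, of which 7 act between acetoacetyl-CoA and squalene and 10 between squalene and cholesterol, 7 enzymes of fatty acid synthesis and 4 regulators or carriers. Members were taken by symbol and role, with no threshold on their values. Of the 28 genes, 27 had a mean of at least 1 FPKM (fragments per length of exon, scaled to all fragments counted in the sample) over the samples and entered the tests with 10853 genes in all. Acss2 lay below that level.

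Tumors were grown in male C57BL/6 mice from LLC-luc cells, a luciferase-labelled line of Lewis lung carcinoma injected under the skin near the armpit. The Laser group was irradiated without a photosensitizer, PC-La tumors were injected beforehand with phycocyanin, a light-absorbing protein of cyanobacteria, and SePC-La tumors with selenium-enriched phycocyanin. Each group had 2 samples. All 3 groups were irradiated, so no tumor without light enters the comparisons, and the labels do not say whether the samples of a group came from separate animals, so that p-values measure only the spread between these samples. The labels give light of 620 nm for 10 min, applied 4 h after an injection repeated every 5 days, while the methods of the study state another wavelength and another interval. The study's text calls the sequencing triplicate, whereas the labels and the table hold 2 samples per group, which are those used here.

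Read totals recovered from the table ran from 14447792 to 17649489 per sample. The labels call the tissue lung cancer, and the markers of normal lung epithelium were near the floor, with 5 of 6 genes under 1 FPKM in all samples and Scgb1a1 and Nkx2-1 at 0. Summed macrophage markers (8 genes, C1qa the most abundant) spanned 657 to 702 FPKM after Laser, 900 to 957 after PC-La and 388 to 730 after SePC-La. Summed skeletal muscle markers were 20.98 and 138 FPKM in the Laser samples and between 1.55 and 5.98 in the other 4. Fewer cells of a type and less RNA per cell cannot be told apart in such bulk tissue.

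Cholesterol is built from acetyl-CoA through mevalonate, squalene and lanosterol, and fatty acids are built from the same acetyl-CoA through malonyl-CoA. Both routes are controlled by the sterol regulatory element binding proteins (SREBPs), membrane-bound transcription factors that are held in the endoplasmic reticulum by INSIG proteins when sterols are plentiful and are released by cleavage when they are scarce. Dividing tumor cells need both products for membranes, and SREBP target genes often move together, with nuclear factor Y (NF-Y, which binds CCAAT) and Sp1 as frequent partners at their promoters.

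The promoters of the members were searched for 3 motifs. RefSeq promoter windows (GRCm38.p6, 250 bases before to 50 after a start site) were matched to 22 of the 28 genes. Scd1, Scd2, Sqle, Stard4, Fdft1 and Fdps had none. CCAAT, searched on both strands, was in a window of 20 of the 22, including 14 of 14 sterol enzymes, 3 of 5 fatty acid enzymes (Acly, Acss2 and Fasn) and 3 of 3 regulators. It was in 37.4% of all 32851 windows and in a window of 43.0% of the 8710 tested genes that had a window. GGGCGG, the core bound by Sp1, was in 18 of the 22, against 35.7% of all windows and 70.0% of tested genes. TCACNCCAC, a strict form of the sterol regulatory element, was in Hmgcs1 alone of the 22, with its first base 137 bases before the start, against 1.24% of all windows. Members with several windows (Dhcr7, Pmvk and Srebf1) were counted if any held the motif. The only stretch searched before a start of Acaca began at 84195188 on chromosome 11, inside the gene, which runs from 84129672 to 84401651 (GRCm38). The sequence before its outermost start was not searched. These are matches of letters, and binding was not measured.

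Those of 4 members are shown as the 250 bases before the start site, 5′ to 3′ on the strand of the gene. Hmgcs1 (chr13:119690101-119690350, plus strand) was the only searched member with both the sterol element and CCAAT. Mvk (chr5:114444019-114444268, plus strand) had the most CCAAT copies of the searched members. Mvd (chr8:122443423-122443672, minus strand) had the widest gap between the samples of a group of all members, and Fasn (chr11:120824548-120824797, minus strand) stands for the fatty acid branch. Capitals mark CCAAT on either strand (ATTGG on the printed strand where it lies on the other) and, in Hmgcs1, TCACCCCAC, and in Fasn a pair of CCAAT matches on opposite strands overlaps.
Hmgcs1: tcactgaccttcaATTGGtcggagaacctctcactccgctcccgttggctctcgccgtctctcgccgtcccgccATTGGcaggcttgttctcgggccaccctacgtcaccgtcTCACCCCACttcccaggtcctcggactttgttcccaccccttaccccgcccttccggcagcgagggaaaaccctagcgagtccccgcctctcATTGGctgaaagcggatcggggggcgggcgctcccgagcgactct
Mvk: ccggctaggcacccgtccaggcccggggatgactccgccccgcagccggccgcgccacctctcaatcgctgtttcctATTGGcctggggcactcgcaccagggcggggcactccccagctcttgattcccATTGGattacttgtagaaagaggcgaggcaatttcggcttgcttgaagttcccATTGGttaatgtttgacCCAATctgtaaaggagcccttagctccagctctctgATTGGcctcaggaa
Mvd: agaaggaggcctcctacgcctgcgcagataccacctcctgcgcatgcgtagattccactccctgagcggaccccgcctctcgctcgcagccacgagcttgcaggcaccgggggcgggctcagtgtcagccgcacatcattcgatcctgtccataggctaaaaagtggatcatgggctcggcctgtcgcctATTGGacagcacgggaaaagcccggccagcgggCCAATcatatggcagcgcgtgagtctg
Fasn: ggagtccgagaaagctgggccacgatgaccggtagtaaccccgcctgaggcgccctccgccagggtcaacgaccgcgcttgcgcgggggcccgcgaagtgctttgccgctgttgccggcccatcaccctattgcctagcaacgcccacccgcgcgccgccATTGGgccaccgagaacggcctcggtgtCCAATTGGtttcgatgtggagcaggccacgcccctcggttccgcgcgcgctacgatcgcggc
The Mvk stretch carried 5 copies, the Hmgcs1 and Fasn stretches 3 each and the Mvd stretch 2.

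Differences between groups were tested with limma in a single fit of all 6 samples. Values were taken as log2(FPKM + 1), which makes the changes of low genes look smaller. No member passed the criterion of the study (a log2 fold change beyond 1 in either direction with an unadjusted p under 0.05) in any of the 3 comparisons. The criterion was passed by 1.29% of all tested genes between PC-La and Laser, by 0.682% between SePC-La and Laser and by 2.98% between SePC-La and PC-La. No tested gene had a Benjamini-Hochberg adjusted p under 0.05 from limma in that fit, while 627, 1318 and 2637 of the 10853 genes had an unadjusted p under 0.05. The smallest adjusted p of a member from limma was 0.753 between PC-La and Laser, 0.385 between SePC-La and Laser and 0.143 between SePC-La and PC-La. An exact permutation test of a single gene with 2 samples against 2 cannot give a p below 0.333.

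**Figure D1:**
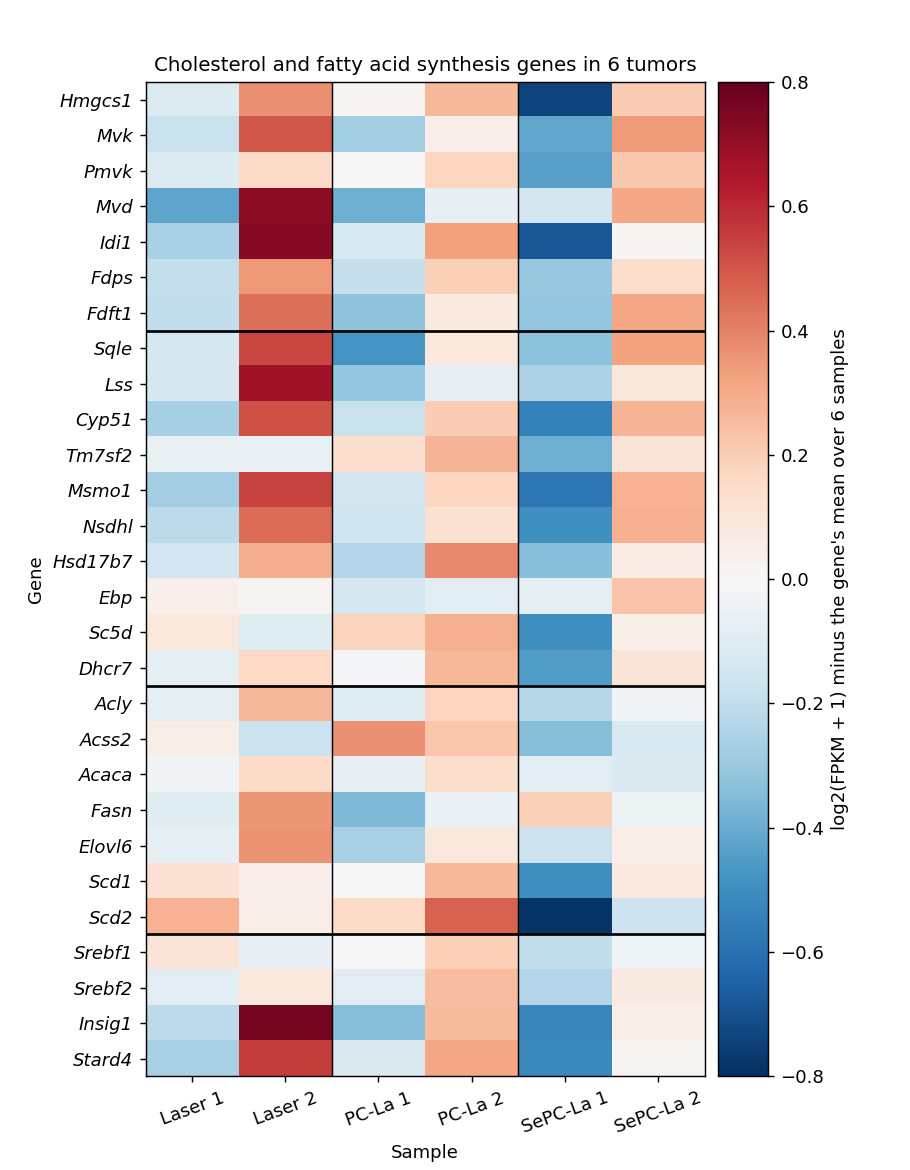
Level of each of the 28 genes in each of the 6 samples, as log2(FPKM + 1) minus the mean of the gene over the 6 samples (colour scale, red above and blue below the mean). Horizontal lines part the genes from mevalonate to squalene, from squalene to cholesterol, of fatty acid synthesis, and the regulators, and most sterol enzymes are red in Laser 2 and blue in SePC-La 1.

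The enzymes that lead to squalene were expressed in all 6 tumors. Hmgcs1 (chromosome 13 from 119690379 to 119708260, GRCm38), which condenses acetyl-CoA with acetoacetyl-CoA, stood at 23.5 and 33.1 FPKM after Laser, 25.9 and 30.8 after PC-La and 14.9 and 29.6 after SePC-La. The SePC-La samples held the lowest value and 1 of the higher values, and all 3 groups overlapped. The log2 fold change of Hmgcs1 against Laser was 0.02 for PC-La and -0.39 for SePC-La, the latter with a 95% interval from -1.21 to 0.42.

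Mvk (chromosome 5 from 114444269 to 114460591), which phosphorylates mevalonate, stood at 8.75 and 14.6 FPKM after Laser, 8.11 and 10.3 after PC-La and 7.27 and 13.0 after SePC-La. Mvd (chromosome 8 from 122433601 to 122443422), the decarboxylase that yields isopentenyl diphosphate, stood at 13.7 and 31.3 FPKM after Laser, 14.0 and 17.8 after PC-La and 16.8 and 23.4 after SePC-La. Its Laser samples, 2.28-fold apart, enclosed the other 4, whereas its group means were at most 1.41-fold apart.

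Idi1 (chromosome 13 from 8885501 to 8892451), which isomerizes isopentenyl diphosphate, varied most of the 27 tested members over the 6 samples, with an SD of 0.49 on the log2 scale. It stood at 12.03 and 24.8 FPKM after Laser, 13.3 and 18.6 after PC-La and 8.71 and 14.7 after SePC-La. Laser 2 was highest and SePC-La 1 lowest, and the groups overlapped. Its log2 fold change between SePC-La and Laser was -0.57 (95% interval -1.55 to 0.41, adjusted p = 0.570 from limma).

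Fdft1, the squalene synthase, ran from 15.9 to 27.7 FPKM over the 6 samples and Pmvk, which phosphorylates mevalonate phosphate, from 10.2 to 16.5, both with overlapping groups. Fdps, the farnesyl diphosphate synthase, was listed at 0.674 to 1.63 FPKM, which stands for 41 to 121 reads. Fdps overlaps Gm43738 on the same strand, so its level depends on how reads shared by both genes were counted and is uncertain.

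Of the enzymes after squalene, Sqle (chromosome 15 from 59315077 to 59331192), the squalene epoxidase, stood at 23.5 and 38.0 FPKM after Laser, 18.4 and 27.6 after PC-La and 20.5 and 32.7 after SePC-La. The groups overlapped, and sample 2 was the higher in each group, as for Idi1. The lowest sample was PC-La 1 for Sqle and SePC-La 1 for Idi1. Lss, which cyclizes squalene epoxide to lanosterol, stood at 5.32 and 10.1 FPKM after Laser, 4.597 and 5.62 after PC-La and 4.86 and 6.38 after SePC-La. It had the lowest log2 fold change of the sterol enzymes between PC-La and Laser, -0.46 (95% interval -1.14 to 0.23, adjusted p = 0.753 from limma), and Laser 2 stood apart from the other 5 samples.

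Cyp51, Msmo1 and Nsdhl, which together with other enzymes remove methyl groups from lanosterol, were also higher in sample 2 of each group. Cyp51 (chromosome 5 from 4081145 to 4104746) stood at 20.9 and 36.5 FPKM after Laser, 22.2 and 29.3 after PC-La and 17.1 and 30.7 after SePC-La. Msmo1 ran from 10.1 to 22.9 FPKM and Nsdhl from 7.06 to 14.4, with Laser 2 highest and SePC-La 1 lowest for all 3 genes. Hsd17b7, which reduces the sterol ketone, ran from 4.73 to 8.47 FPKM and Dhcr7, the 7-dehydrocholesterol reductase of the last steps, from 3.05 to 5.63, with PC-La 2 highest and SePC-La 1 lowest for both.

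Like Pmvk, Hsd17b7 and Dhcr7, the enzymes Tm7sf2, Ebp and Sc5d did not have Laser 2 as the highest sample. Sc5d (chromosome 9 from 42251595 to 42264256), the lathosterol desaturase, stood at 25.5 and 22.5 FPKM after Laser, 27.3 and 29.5 after PC-La and 16.8 and 24.9 after SePC-La. PC-La lay above both other groups without overlap, with a log2 fold change of SePC-La against PC-La of -0.45 (95% interval -0.92 to 0.02, adjusted p = 0.216 from limma). Ebp, a sterol isomerase, stood at 7.05 and 6.94 FPKM after Laser, 6.12 and 6.34 after PC-La and 6.44 and 8.13 after SePC-La. Ebp was the least variable sterol enzyme, and its PC-La samples lay below the other 4. Tm7sf2, a sterol reductase, stood at 2.05 and 2.06 FPKM after Laser, 2.50 and 2.85 after PC-La and 1.43 and 2.42 after SePC-La. Its PC-La samples lay above the other 4, and it overlaps Vps51 on the same strand, so its counts are uncertain too. Hmgcs1, Mvd, Idi1, Fdft1, Lss, Cyp51, Acaca, Acss2, Elovl6 and Srebf1 overlap genes on the opposite strand, which matters if the counting did not use strand. Apart from genes of small RNAs, Acss2 (Mipep-ps and Gm20637), Acaca (Gm37391), Elovl6 (Gm43072) and Srebf2 (Gm49502) also overlap genes on the same strand. Their counts may depend on how shared reads were treated.

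As a group, the 17 sterol enzymes had a median log2 fold change of -0.12 between PC-La and Laser, -0.21 between SePC-La and Laser and -0.15 between SePC-La and PC-La, where all tested genes had medians of -0.00, -0.06 and -0.07. Values below 0 were found for 11, 16 and 11 of the 17, against 5435, 6485 and 6350 of the 10853 tested genes. None of these sterol enzymes passed the test. Ebp was the sterol enzyme above 0 in SePC-La against Laser. With single samples left out, the median ran from -0.47 to 0.19, from -0.53 to 0.15 and from -0.47 to 0.26 in the 3 comparisons, so that its sign depended on single samples each time. Between PC-La and Laser it was 0.08 without PC-La replicate 1 and 0.19 when Laser replicate 2 was left out. Between SePC-La and Laser it was 0.15 without SePC-La replicate 1 and 0.06 without Laser replicate 2. For SePC-La and PC-La it was 0.26 without SePC-La replicate 1 and 0.06 without PC-La replicate 2.

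In the fatty acid branch, Acly (chromosome 11 from 100476353 to 100528000), which makes cytosolic acetyl-CoA from citrate, stood at 45.3 and 57.5 FPKM after Laser, 44.7 and 54.1 after PC-La and 40.8 and 47.2 after SePC-La. Acaca, the acetyl-CoA carboxylase that makes malonyl-CoA, stood at 5.62 and 6.46 FPKM after Laser, 5.42 and 6.42 after PC-La and 5.34 and 5.20 after SePC-La. Acaca was the least variable member, and its SePC-La samples lay below the other 4 by a small margin. The log2 fold change of Acaca between SePC-La and Laser was -0.16 (95% interval -0.51 to 0.18).

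Fasn (chromosome 11 from 120805846 to 120824547), the fatty acid synthase, stood at 33.8 and 46.4 FPKM after Laser, 28.1 and 34.8 after PC-La and 41.4 and 35.1 after SePC-La. Its SePC-La samples lay above those of PC-La by a narrow gap, with a log2 fold change of 0.28 (95% interval -0.19 to 0.75). Elovl6, which elongates palmitate, ran from 14.6 to 22.99 FPKM with overlapping groups. Acss2, which makes acetyl-CoA from acetate, was not tested and stood at 0.914 and 0.641 FPKM after Laser, 1.38 and 1.151 after PC-La and 0.456 and 0.693 after SePC-La.

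Scd2 (chromosome 19 from 44293674 to 44306864), a stearoyl-CoA desaturase that introduces the double bond of oleate, was the most abundant member per length. It stood at 161 and 138 FPKM after Laser (150 ± 16.5, SD, n = 2), 147 and 184 after PC-La (166 ± 26.0, SD, n = 2) and 76.6 and 118 after SePC-La (97.3 ± 29.3, SD, n = 2). Both SePC-La samples lay below all 4 others. Its SePC-La mean was 0.651 times that of Laser and 0.587 times that of PC-La.

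On the log2 scale the difference in Scd2 was -0.64 between SePC-La and Laser (standard error 0.23, unadjusted p = 0.031 and adjusted p = 0.385 from limma) and -0.79 between SePC-La and PC-La (standard error 0.23, unadjusted p = 0.013 and adjusted p = 0.143 from limma). Scd2 was the only member with an unadjusted p under 0.05 in that fit, in both comparisons, where 12.1% and 24.3% of all tested genes had such a p and 7.24% and 14.4% had it with SePC-La lower. Between PC-La and Laser no member had it, against 5.78% of genes. The difference from Laser ran from -0.95 to -0.33 and that from PC-La from -1.09 to -0.48 with single samples left out. The unadjusted p was above 0.05 without SePC-La replicate 1 in both comparisons, without Laser replicate 1 in the first and without PC-La replicate 2 in the second.

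Scd1 (chromosome 19 from 44394455 to 44407879), a close paralog of Scd2 on the same chromosome, stood at 47.4 and 44.9 FPKM after Laser, 43.6 and 52.5 after PC-La and 30.8 and 46.0 after SePC-La. SePC-La 1 was lowest for both desaturases and SePC-La 2 lay within the range of the others for Scd1. The log2 fold change of Scd1 was -0.28 against Laser and -0.34 against PC-La (adjusted p = 0.582 and 0.339 from limma). Reads could be divided between similar copies, so the levels of Scd1 and Scd2 relative to each other are uncertain. Summed adipocyte markers (8 genes, 1 of them under 1 FPKM in all samples, Cfd the most abundant) were 3.17 and 59.7 FPKM in the SePC-La samples, 11.8 and 1.66 after Laser, and 7.75 and 16.8 after PC-La, with Adipoq at 0 in Laser 2 and SePC-La 1. Markers of keratinocytes and sebocytes were under 1 FPKM in all samples for 8 of 8 genes. The part of the adipocyte and macrophage signal in the Scd2 difference was not tested.

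**Figure D2:**
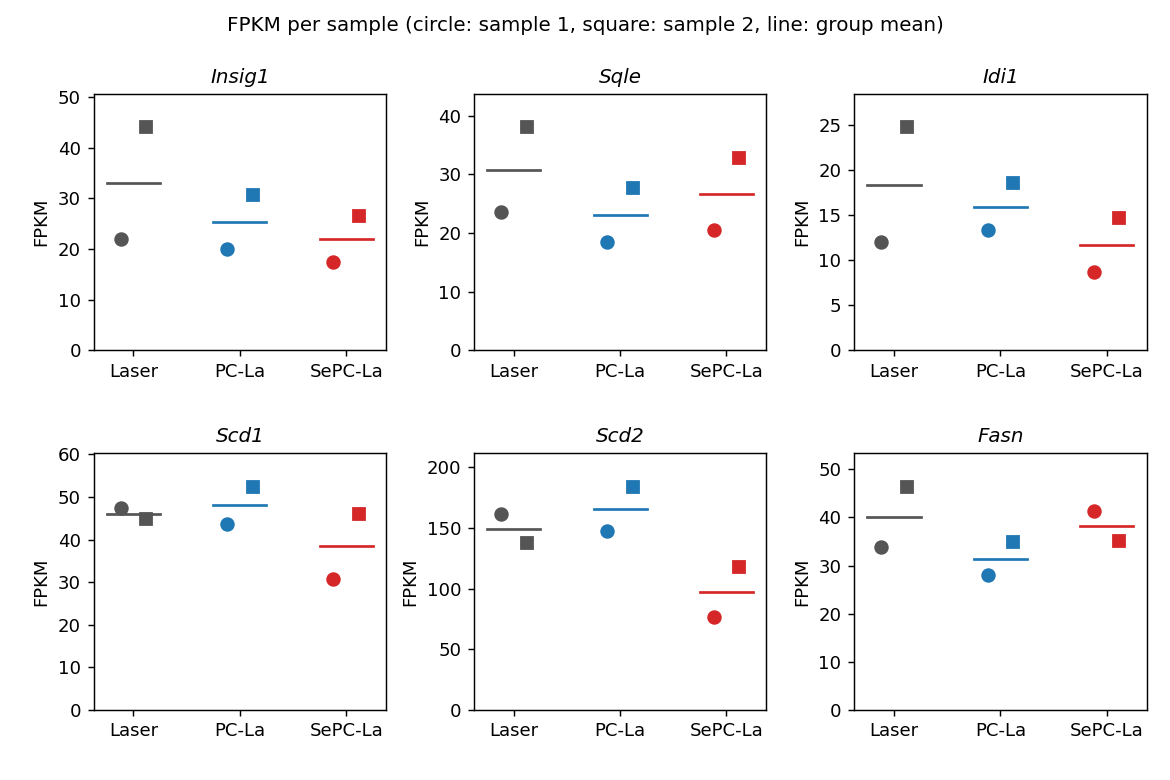
FPKM (vertical axes, from 0) of Insig1, Sqle, Idi1, Scd1, Scd2 and Fasn in the 2 samples of each group, with circles for sample 1, squares for sample 2 and lines for the group means. For Scd2 both SePC-La samples, at 76.6 and 118, sit below the other 4, while for Insig1, Sqle and Idi1 the samples of a group are farther apart than most group means.

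The 6 tested fatty acid enzymes had a median log2 fold change of -0.04 between PC-La and Laser, -0.21 between SePC-La and Laser and -0.15 between SePC-La and PC-La. The last 2 medians were the same as those of the sterol enzymes to 2 decimals. With single samples left out they ran from -0.17 to 0.08, from -0.33 to -0.06 and from -0.27 to -0.03. The first turned above 0 without PC-La replicate 1 (0.08) and without Laser replicate 2 (0.02), and the others stayed below 0.

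Among the regulators, Srebf2 (chromosome 15 from 82147181 to 82205379), the SREBP that mainly drives sterol synthesis, stood at 37.7 and 42.5 FPKM after Laser, 37.8 and 47.6 after PC-La and 33.8 and 42.1 after SePC-La. Srebf1 (chromosome 11 from 60199089 to 60222581), which mainly drives fatty acid synthesis, stood at 26.7 and 23.7 FPKM after Laser, 24.8 and 28.5 after PC-La and 21.6 and 24.2 after SePC-La. Neither varied much, with a highest value 1.41 times the lowest for Srebf2 and 1.32 times for Srebf1. The Srebf1 samples of SePC-La lay just below those of PC-La.

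Insig1 (chromosome 5 from 28071363 to 28078662), itself a target of SREBP and a brake on it, stood at 22.0 and 44.1 FPKM after Laser, 20.0 and 30.7 after PC-La and 17.4 and 26.6 after SePC-La. Stard4, a cytosolic carrier of cholesterol, stood at 10.1 and 18.7 FPKM after Laser, 11.3 and 15.5 after PC-La and 8.34 and 12.6 after SePC-La. Both had Laser 2 highest and SePC-La 1 lowest with overlapping groups. Between SePC-La and Laser the log2 fold change was -0.52 for Insig1 and -0.39 for Stard4 (adjusted p = 0.604 and 0.630 from limma). Over the 4 regulators and carriers the median log2 fold change was 0.01, -0.26 and -0.20 in the 3 comparisons.

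**Figure D3:**
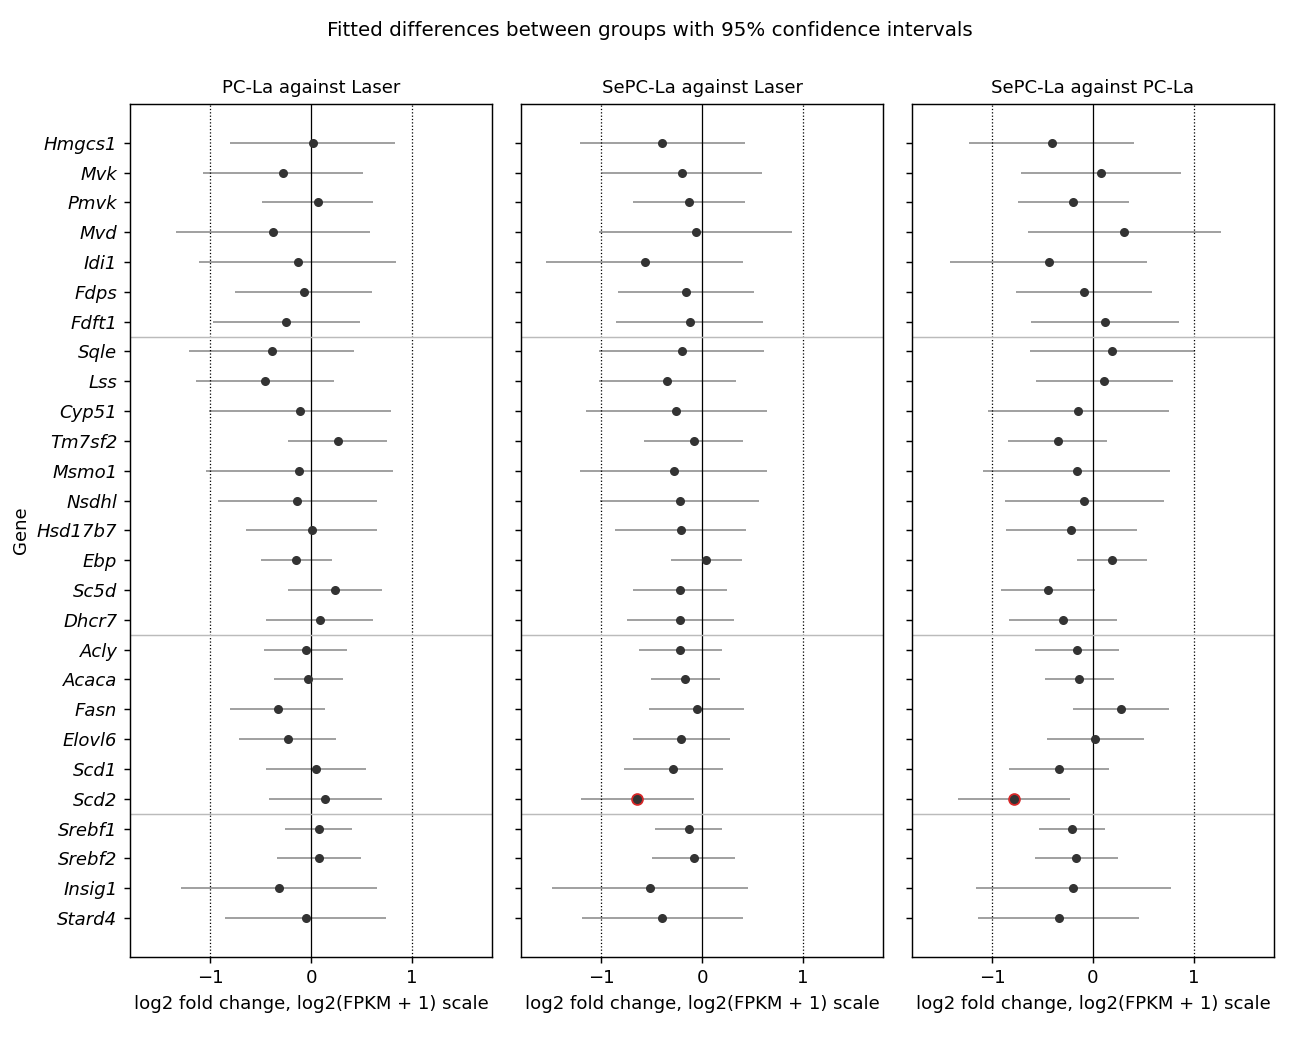
Fitted log2 fold change (horizontal axis, log2(FPKM + 1) scale) of each of the 27 tested members in the 3 comparisons, with bars for 95% confidence intervals and dotted lines at the fold change of the criterion. Red rings mark an unadjusted p under 0.05, which only Scd2 had, at -0.64 and -0.79.

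Counted over all members, 17 of 27 had a value below 0 between PC-La and Laser and 26 of 27 between SePC-La and Laser. Between SePC-La and PC-La it was 19 of 27. Of the 10853 tested genes, 5435, 6485 and 6350 had a value below 0 in these 3 comparisons. These comparisons share samples, so their counts are not independent. Groups did not overlap for 3 members between PC-La and Laser (Tm7sf2 and Sc5d higher, Ebp lower), against 42% of all tested genes. Between SePC-La and Laser they did not overlap for 2 (Acaca and Scd2, both lower), against 40.6% of genes in either direction and 25.6% with SePC-La lower. For SePC-La and PC-La they did not overlap for 7 (Ebp and Fasn higher, Tm7sf2, Sc5d, Acaca, Scd2 and Srebf1 lower), against 65.5%.

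The larger differences lay inside the groups. This pattern was chosen after the values were seen and is given as a description. The sample numbered 2 was higher than the sample numbered 1 in all 3 groups for 15 of 17 sterol enzymes, 2 of 6 fatty acid enzymes and 3 of 4 regulators and carriers, and for 9.67% of all tested genes. The exceptions among the sterol enzymes were Ebp and Sc5d, both in Laser. For 14 of the 17 sterol enzymes all 3 samples numbered 2 stood above all 3 numbered 1, as for 2.42% of tested genes.

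The median difference of sample 2 from sample 1 over the sterol enzymes was 0.64 on the log2 scale after Laser, 0.32 after PC-La and 0.62 after SePC-La. Over the fatty acid enzymes it was 0.26, 0.29 and 0.22, and over all tested genes -0.03, 0.00 and 0.04. The ratio of sample 2 to sample 1 reached 2.28 for Mvd, 2.06 for Idi1 and 2.00 for Insig1 in Laser, and 1.99 for Hmgcs1 in SePC-La. The largest ratio between the samples of a group exceeded the largest ratio between group means in 17 of 17 sterol enzymes and in 25 of the 27 tested members, as in 56.8% of all tested genes, and Scd2 and Srebf1 were the members without it.

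**Figure D4:**
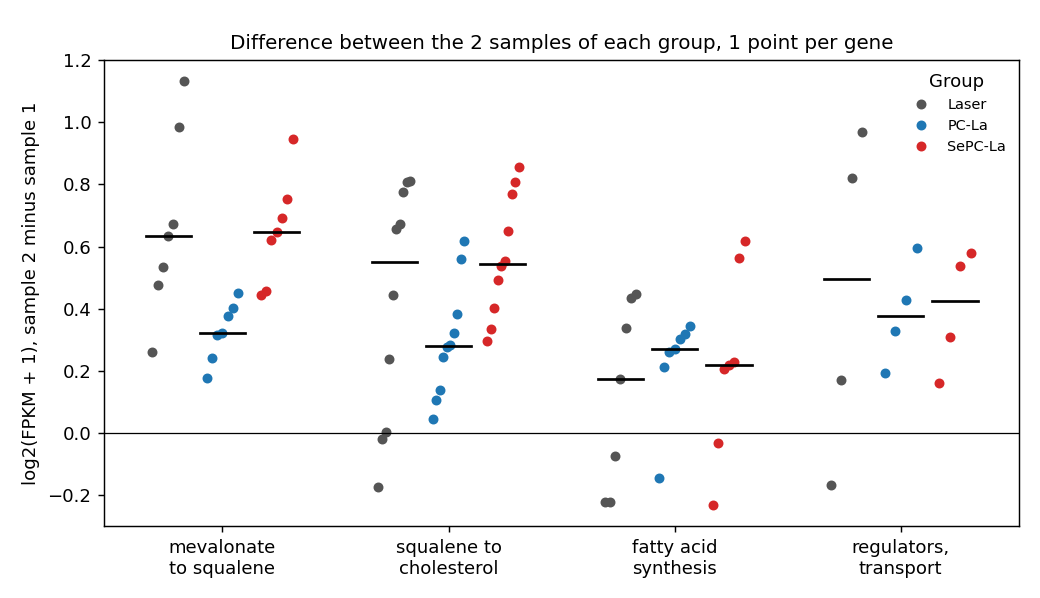
Difference of sample 2 from sample 1 in each group (vertical axis, log2(FPKM + 1)), with 1 point per gene, colours for the 3 groups, and lines for the median of each gene group. The sterol enzymes lie above 0 except for Ebp and Sc5d in Laser, with the smallest spread in PC-La. Acss2 is included among the 7 genes of fatty acid synthesis.

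Expressed as a share of the sum of squares over the 6 samples, the groups took a median of 16.8% for the sterol enzymes, 41.3% for the tested fatty acid enzymes and 56.2% for all tested genes. The sample number took 65.6%, 29.3% and 6.01%. A split into 3 groups takes a larger share by itself than a split into 2 numbers. The share of the groups and that of the number are therefore best read each beside its value for all tested genes. Laser 2 was the highest sample for 11 of 17 sterol enzymes and SePC-La 1 the lowest for 12, against 22.5% and 29.7% of all tested genes.

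The labels give the numbers no meaning beyond naming the samples. Recovered totals of samples 1 and 2 were 15718323 and 17649489 reads after Laser, 15628472 and 14965281 after PC-La and 14447792 and 17458769 after SePC-La, so that the sample numbered 2 was the shallower in PC-La. Summed proliferation markers (8 genes, Pcna the most abundant) were 351 and 427 FPKM after Laser, 345 and 363 after PC-La and 455 and 429 after SePC-La. Neutrophil markers (7 genes, S100a9 the most abundant) were 161 and 34.4, 156 and 91.1, and 337 and 461. Hypoxia-induced genes (8 genes, Egln3 the most abundant) were 231 and 189, 193 and 171, and 430 and 363. The summed sterol enzymes were 205 and 315 FPKM, 206 and 261, and 167 and 272. Besides the sterol enzymes, the summed fatty acid enzymes and the summed regulators and carriers were higher in sample 2 of each group. The same held for sums of neighbouring lists described below. For the isoprenoid branch they were 120 and 132 FPKM, 117 and 118, and 115 and 121. For the supply, elongation and activation of fatty acids they were 277 and 307, 269 and 295, and 275 and 312. Of the marker lists, summed macrophage markers were higher in sample 2 of each group, at 657 and 702, 900 and 957, and 388 and 730. So were the summed skeletal muscle markers (8 genes), at 20.98 and 138, 2.42 and 2.54, and 1.55 and 5.98. Of these genes 2 were under 1 FPKM in all samples, and Acta1 was the most abundant. By gene, 4 of 8 macrophage and 2 of 6 tested muscle markers were higher in sample 2 in all 3 groups. Their part in the sterol pattern was not tested.

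Neighbouring steps of the pathway were read from further lists, whose counts past the criterion stand beside 1.29%, 0.682% and 2.98% of all tested genes in the 3 comparisons. The 4 genes that move or cleave SREBP or retain it (Scap, Mbtps1, Mbtps2 and Insig2) had no member past the criterion, and the smallest p was that of Mbtps1, the site-1 protease, in each comparison. Mbtps1 stood at 28.5 and 20.8 FPKM after Laser, 33.2 and 28.2 after PC-La and 20.5 and 22.2 after SePC-La, a log2 fold change of -0.50 between SePC-La and PC-La (unadjusted p = 0.028 and adjusted p = 0.169 from limma). Both SePC-La samples lay below both PC-La samples, and the Laser samples spanned the gap. The sample number did not order these 4 genes as it did the enzymes, since 0 of 4 were higher in sample 2 in all 3 groups.

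Of the 9 genes of the isoprenoid branch, which draws farnesyl diphosphate off into prenylation, dolichol and ubiquinone, none passed the criterion. In all 3 groups 4 of the 9 were higher in sample 2, against 9.67% of all tested genes. Between SePC-La and PC-La, 3 of the 9 had an unadjusted p under 0.05 from limma (1 higher and 2 lower in SePC-La), against 24.3% of all tested genes. Ggps1, the geranylgeranyl diphosphate synthase, stood at 12.4 and 10.8 FPKM after Laser, 13.4 and 12.6 after PC-La and 8.25 and 8.35 after SePC-La. Both SePC-La samples lay below the other 4, with log2 fold changes of -0.43 against Laser and -0.59 against PC-La (unadjusted p = 0.014 and 0.003, adjusted p = 0.376 and 0.126 from limma). Pdss1, a subunit of the enzyme that makes the ubiquinone side chain, stood at 4.87 and 6.68 FPKM after Laser, 2.64 and 3.85 after PC-La and 5.64 and 5.30 after SePC-La. PC-La lay below both other groups, with a log2 fold change of -0.68 against Laser (unadjusted p = 0.014, adjusted p = 0.753 from limma).

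Of 14 genes for the supply, elongation and activation of fatty acids, 12 were tested and none passed the criterion. In all 3 groups 6 of the 12 were higher in sample 2, against 9.67% of all tested genes. With SePC-La set against PC-La, 4 of the 12 had an unadjusted p under 0.05 from limma (1 higher and 3 lower in SePC-La). Of all tested genes 24.3% had such a p, and 14.4% had it with SePC-La lower. In the same comparison 7 of the 12 were above 0, against 41.5% of all tested genes, and the median log2 fold change was 0.11. Groups did not overlap for 6 genes higher and 3 lower in SePC-La, against 65.5% of all tested genes. Elovl5, an elongase of polyunsaturated fatty acids, stood at 36.4 and 38.3 FPKM after Laser, 36.0 and 38.0 after PC-La and 28.9 and 28.9 after SePC-La. Its SePC-La samples lay below the other 4, and the log2 fold change against Laser was -0.36 (unadjusted p = 0.016, adjusted p = 0.376 from limma). Acsl4, which activates arachidonate, stood at 16.9 and 17.3 FPKM after Laser, 20.4 and 25.2 after PC-La and 12.5 and 16.3 after SePC-La. It was lowest in SePC-La and highest in PC-La without overlap, with a log2 fold change of -0.63 between them (unadjusted p = 0.009, adjusted p = 0.134 from limma).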

How the data were processed

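RNA of 6 tumor samples, 2 per group, was sequenced from total RNA with a NEBNext Ultra II kit. The authors deposited 1 table of values per gene and sample, whose unit it does not name. The deposited values were taken as FPKM, since with the merged exon lengths of GENCODE M21 (GRCm38) 97.8% of expressed genes gave whole reads (tolerance 0.02) in all samples. The submitters' processing notes name HISAT2 2.0.5, HTSeq 0.9.1 and DESeq 1.30.0 without parameters, and an older mouse build than the annotation that matched. Coordinates given for genes are those of GENCODE M21, and whether counting used the strand is not given in the sources used here.

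Members were matched by symbol. The members and lists were chosen with earlier results of these data known, so lists were described without a test. Genes averaging 1 FPKM or more were tested with limma 3.58.1 (R 4.3.3) on log2(FPKM + 1), with group means over all 6 samples and trended, robust empirical Bayes moderation (6.4 total degrees of freedom for the median gene). P-values were two-sided and Benjamini-Hochberg adjusted over 10853 genes. The named genes were all members and, from each other pathway list and comparison, genes past the criterion or otherwise the gene with the smallest p. From marker lists they were the most abundant gene and those near 0. Scripts were tested on simulated data. Alternatives were another pseudocount, other filters, scaling by median ratios, quantile normalization, moderation without trend or without robust estimation, 4 samples per fit, a replicate block, voom on recovered reads and single samples left out. Promoter sequences are from RefSeq on GRCm38.p6. Python 3.11.15, pandas 2.3.3, NumPy 2.4.6 and matplotlib 3.10.9 were also used.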

Additional observations from a re-analysis of the deposited data

How the results depend on the processing

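No member passed the criterion between PC-La and Laser under any alternative. Between SePC-La and Laser 2 did without Laser replicate 1 (Idi1 at -1.06 and Insig1 at -1.001 on the log2 scale), so that the count ran from 0 to 2 with single samples left out. Between SePC-La and PC-La 1 did without SePC-La replicate 2 (Scd2 at -1.09), a range from 0 to 1. At an unadjusted p under 0.05 from limma and any fold change, with all samples in, the count was 1 in each of these comparisons, Scd2 both times, and 0 between PC-La and Laser. That count rested on single samples. Between PC-La and Laser it was 3 without Laser replicate 1 (Fasn, Lss and Mvd). Between SePC-La and Laser it was 5 without Laser replicate 1 (Idi1, Insig1, Lss, Mvd and Stard4, not Scd2), 4 without SePC-La replicate 2 (Hmgcs1, Sc5d, Scd1 and Scd2) and 0 without SePC-La replicate 1. For SePC-La and PC-La it was 7 without SePC-La replicate 2 (Dhcr7, Hmgcs1, Pmvk, Sc5d, Scd1, Scd2 and Tm7sf2) and 0 without PC-La replicate 2 or SePC-La replicate 1. No member had an adjusted p under 0.05 from limma under any alternative. The median log2 fold change of the sterol enzymes between SePC-La and PC-La ran from -0.47 to 0.26 with single samples left out, the highest without SePC-La replicate 1. Without the filter, Acss2 also had an unadjusted p under 0.05 between SePC-La and PC-La, as Sc5d did with quantile normalization and with voom.

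The sample numbers were compared over 10853 genes by correlating the deviations of same-numbered samples from their group means. The correlation was 0.086 between Laser and PC-La, -0.428 between Laser and SePC-La and -0.177 between PC-La and SePC-La. Such a value over all genes cannot show a pairing that touches only some of them. Whether same-numbered samples were handled together was not tested. With the number as a replicate block, 0 members passed the criterion in all 3 comparisons, and the unadjusted p from limma was under 0.05 for Sqle between PC-La and Laser, for Idi1, Insig1 and Scd2 between SePC-La and Laser, and for Idi1 and Scd2 between SePC-La and PC-La, where 4.16%, 8.64% and 18.7% of all tested genes had such a p. All tested genes past the criterion numbered 133, 81 and 285 with the block and 140, 74 and 323 without it. With single samples left out they ran from 71 to 664, from 60 to 253 and from 169 to 584, highest without Laser replicate 1 in the comparisons with Laser and without SePC-La replicate 2 in the other. In SePC-La against Laser the count was 129 with a pseudocount of 0.1, 46 with a minimum mean of 5 FPKM and 133 with voom, and between PC-La and Laser 68 with that minimum and 221 with voom. Between SePC-La and PC-La it was 488 with a pseudocount of 0.1 and 186 with that minimum. With only the 4 samples compared, 637 genes but 0 members had an adjusted p under 0.05 from limma between SePC-La and PC-La.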

Other observations

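Genes that dispose of sterols and fatty acids were read beside those that make them. Of 8 genes of the liver X receptor and sterol efflux list, all tested, Mylip passed the criterion between SePC-La and PC-La. Mylip (chromosome 13 from 45389742 to 45412022), a ubiquitin ligase induced by liver X receptors, stood at 12.4 and 4.21 FPKM after Laser, 14.8 and 11.3 after PC-La and 1.93 and 4.34 after SePC-La. Its log2 fold change between SePC-La and PC-La was -1.82 (standard error 0.51, unadjusted p = 0.014 and adjusted p = 0.143 from limma), and against Laser -1.08 (unadjusted p = 0.084, adjusted p = 0.452 from limma) with Laser 2 just below the higher SePC-La sample. Abca1, the cholesterol exporter, stood at 6.85 and 5.72 FPKM after Laser, 3.83 and 4.57 after PC-La and 4.01 and 5.56 after SePC-La, a log2 fold change of -0.49 between PC-La and Laser (unadjusted p = 0.036, adjusted p = 0.753 from limma). Abca1 went against most of its list, since 6 of the 8 genes were above 0 between PC-La and Laser, against 49.9% of all tested genes. The median log2 fold change of the list was 0.35. Groups did not overlap for 5 genes higher and 1 lower in PC-La, against 42% of all tested genes. An unadjusted p under 0.05 from limma was found for 1 higher and 1 lower gene, against 5.78%. None of the 8 genes was higher in sample 2 than in sample 1 in all 3 groups. The cause of these differences was not tested.

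Of 11 fatty acid oxidation genes, 10 were tested and none passed the criterion. Acadvl, the very long-chain acyl-CoA dehydrogenase, stood at 9.31 and 7.40 FPKM after Laser, 12.3 and 11.4 after PC-La and 6.55 and 8.06 after SePC-La, with a log2 fold change of -0.64 between SePC-La and PC-La (unadjusted p = 0.007, adjusted p = 0.129 from limma). Hadhb, a subunit of the mitochondrial trifunctional protein, had the smallest p of the list between SePC-La and Laser, at a log2 fold change of -0.28. Of 7 triglyceride assembly genes, 6 were tested and none passed it. Agpat1, which acylates lysophosphatidate, stood at 39.1 and 41.6 FPKM after Laser, 34.0 and 36.5 after PC-La and 52.7 and 40.1 after SePC-La.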
